A study of Mus musculus with 6 samples.

Results

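DNA replication and S phase genes are 50 genes whose products license origins, open and copy DNA, join the new strands and carry cells from G1 into S phase. They were taken by symbol from a fixed list and matched to Ensembl identifiers, and 50 of 50 had at least 10 reads over the 6 samples, among 47643 genes in the count table and 11877 genes tested. The samples were CD4+ T cells that were positive for both Blue and Red forms of the *Nr4a3*-Timer, sorted from spleens of Tg4 Tiger *Nr4a3*-Tocky mice. Tg4 mice carry a transgenic T cell receptor for a myelin basic protein peptide, Tiger is a green fluorescent reporter of *Il10*, and the Timer is a protein that matures from blue to red and is driven by the regulatory region of *Nr4a3*, a gene switched on by T cell receptor signals. Every mouse, controls included, carried these transgenes and received 80 μg of the high-affinity 4Y form of the peptide subcutaneously. After 24 h the mice received 800 μg of isotype antibody, anti-PD1 (clone 29F.1A12) or anti-Lag3 intraperitoneally, 30 min later all received 8 μg of peptide, and spleens were taken 4 h after that. The groups held 2 samples each, described as biological duplicates, and the study used mice of both sexes whose ages are not given in the sources used here. Because cells were sorted on the Timer, all groups were cells that had met antigen, and no unstimulated group was compared. The question was how blocking either co-inhibitory receptor alters the transcripts of cells that are already activated.

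Replication starts when the origin recognition complex, Cdc6 and Cdt1 load the MCM2-7 ring on DNA in G1, and Cdc45 and GINS then turn the ring into the moving helicase. Polymerase alpha with primase starts each strand, the clamp loader RFC places the PCNA clamp, polymerases delta and epsilon extend, and Fen1 and Lig1 finish the Okazaki fragments. D-type and E-type cyclins with their kinases relieve the hold of RB on E2F factors, and E2F factors switch on many of these genes together. Activated T cells divide fast after a delay of about a day, so these genes are widely read as a sign that a T cell has left rest.

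Some promoters of these genes, 17 of 41 looked at, hold E2F-type words. From those, 3 were chosen to make the words visible beside the expression values. RefSeq promoter windows (GRCm38.p6, 250 bases before to 50 after each start) were matched for 41 of 50 genes, in 52 windows. In each line the 200 bases before the RefSeq start are read 5′ to 3′ on the strand of the gene, and capitals mark the words TTTCGCGC or TTTGGCGC on either strand, which run into one another where they overlap.
Mcm5 (chr8:75109309-75109508, plus strand): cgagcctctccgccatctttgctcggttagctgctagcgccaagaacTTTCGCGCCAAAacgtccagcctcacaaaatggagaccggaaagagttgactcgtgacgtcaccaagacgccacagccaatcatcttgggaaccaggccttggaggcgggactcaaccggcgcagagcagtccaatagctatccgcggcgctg
Mcm6 (chr1:128359706-128359905, minus strand): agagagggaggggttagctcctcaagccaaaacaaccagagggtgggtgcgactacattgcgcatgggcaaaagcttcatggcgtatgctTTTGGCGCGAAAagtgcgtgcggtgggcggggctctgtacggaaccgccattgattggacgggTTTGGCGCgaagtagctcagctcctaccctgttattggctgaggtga
Pola1 (chrX:93632156-93632355, minus strand): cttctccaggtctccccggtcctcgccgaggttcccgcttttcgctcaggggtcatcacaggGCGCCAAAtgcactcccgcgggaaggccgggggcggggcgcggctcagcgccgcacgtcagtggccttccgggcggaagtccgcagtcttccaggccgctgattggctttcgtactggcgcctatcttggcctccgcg
*Mcm5* held 2 overlapping words, *Mcm6* held 3, of which 2 overlapped, and *Pola1* held 1.

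Any of the words TTTCGCGC, TTTGGCGC, TTTCCCGC and TTTGCCGC, searched on both strands and allowed to overlap, was found in 17 of 41 genes (41.5%), against 704 of 27025 genes with a window (2.60%). By window the share was 17 of 52 (32.7%) against 744 of 32851 (2.26%). The GC content of these windows had a median of 61.3%, against 52.7% for all windows. Among the members, TTTCGCGC was found in 7 windows, TTTGGCGC in 7, TTTCCCGC in 8 and TTTGCCGC in 0. The MCM genes held a word in 4 of 5 genes with a window, the licensing genes in 3 of 5, the polymerase and primase genes in 4 of 7 and the E2F activators in 2 of 3. None of the 4 G1 cyclin and kinase genes or the 3 single-strand binding genes with a window held one. A match describes letters only, and *Ccnd2*, *Ccne2*, *Mcm4*, *Pole*, *Prim2*, *Rfc2*, *Gins1*, *Gins2* and *Gins4* were not looked at.

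The replication genes were well expressed in every group, and none passed the test in any comparison. The summed level of the 50 genes, in CPM (reads of a gene relative to all counts of the sample after TMM scaling), was 8374 and 9054 in isotype, 8736 and 8361 in anti-PD1 and 8288 and 8629 in anti-Lag3 (mean ± SD, n = 2: 8714 ± 481, 8549 ± 265 and 8459 ± 241). The groups overlapped, and the lowest and highest samples of the 6 lay 1.09-fold apart. These genes took 0.804% to 0.899% of all counts. CPM are per 3′ read and not per length, so levels are compared between samples and not between genes. In bulk RNA, fewer cells in S phase and less RNA per cell cannot be told apart.

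**Figure D1:**
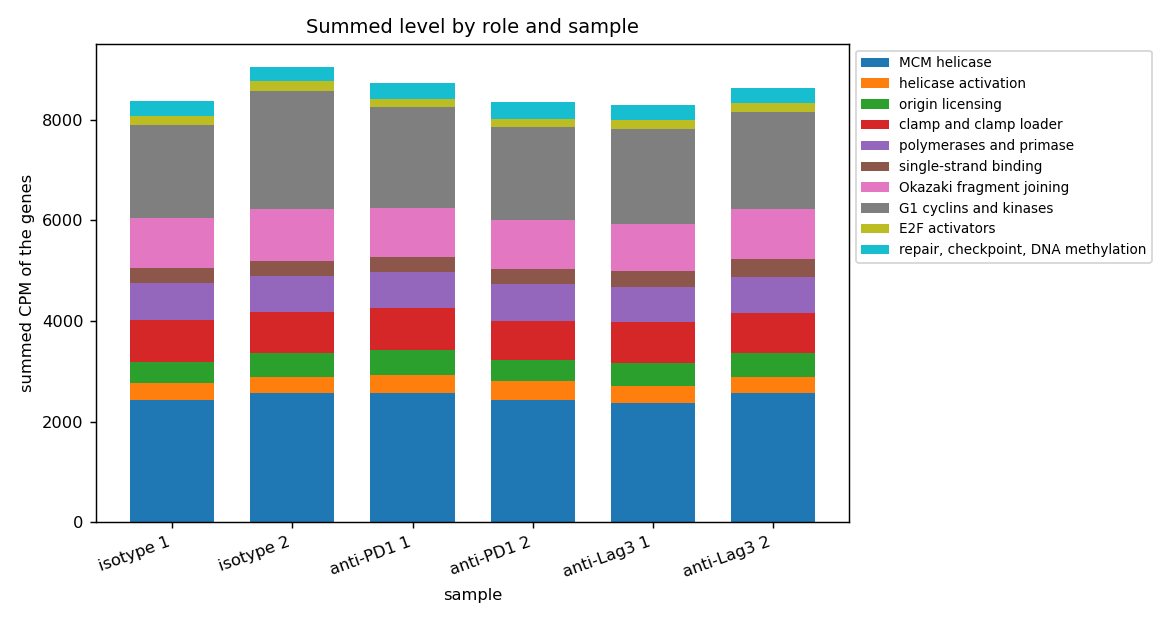
Stacked bars of the summed CPM of the 50 genes in each of the 6 samples (vertical axis from 0), coloured by role. The totals run from 8288 to 9054, and the G1 cyclin and kinase block is tallest in isotype 2, at 2355.

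The members were among the more abundant transcripts, which sets how small a difference could be seen. The number of reads per gene over the 6 samples ran from 210 for *Rpa3* to 18103 for *Ccnd2*, and 49 of 50 genes lay above the median tested gene in mean CPM, at a median percentile of 84.2. The highest sample was within 2-fold of the lowest for 50 of 50 genes and within 1.5-fold for 38. The median of this ratio was 1.36, against 1.90 over all genes tested, which include many genes with few reads. The standard error of a log2 fold change had a median of 0.167 for the members between anti-PD1 and isotype and 0.35 over all genes tested.

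**Figure D2:**
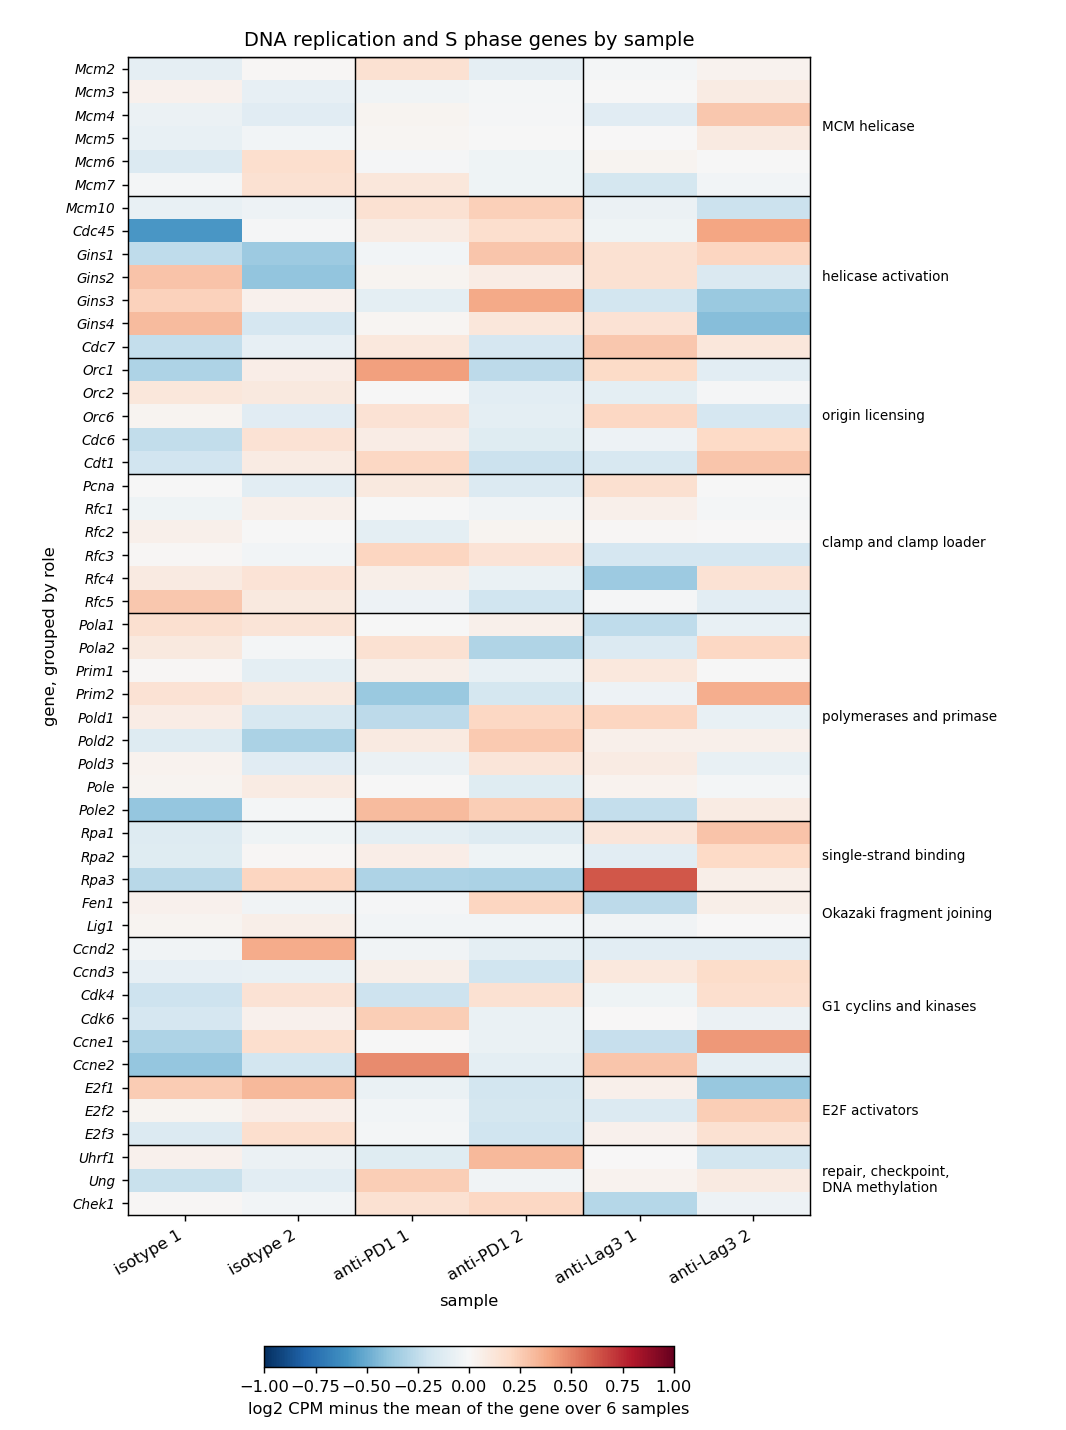
Heat map of the 50 genes (rows, grouped by role) in the 6 samples (columns), coloured by log2 CPM minus the mean of that gene over the samples, from −1 (blue) to 1 (red). Most cells are pale, and no role changes colour as a block between the 3 groups; isotype 1 held the lowest value of 15 genes and anti-Lag3 2 the highest of 15.

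Against isotype, anti-PD1 gave no call among the members at an adjusted p under 0.05 (edgeR's quasi-likelihood test, Benjamini-Hochberg adjustment over all genes tested), where 107 genes (0.901%) were called over all genes. DESeq2 and limma-voom also called 0 members. The smallest adjusted p of a member was 0.353. At an unadjusted p under 0.05 there were 3 of 50 genes (6%), *Ccnd2*, *Ccne2* and *Pold2*, against 8.12% of all genes tested. The log2 fold changes ran from −0.42 to 0.48 with a median of 0.03 (0.00 over all genes), and 30 were positive and 20 negative. Both samples of one group lay beyond both of the other for 21 genes (42%), against 37.4% of all genes. The 95% interval of the fold change lay within 2-fold in both directions for 47 of 50 genes and within 1.5-fold for 38.

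Against isotype, anti-Lag3 also gave 0 calls among the members by this test, where 5 genes (0.0421%) were called over all genes. The smallest adjusted p was 0.641, and 3 of 50 genes (6%), *Ccnd2*, *Pola1* and *Rpa1*, had an unadjusted p under 0.05, against 5.96% of all genes. The log2 fold changes ran from −0.44 to 0.49 with a median of 0.05 (0.00 over all genes), 32 positive and 18 negative. The groups did not overlap for 18 genes (36%), against 34.6% of all genes. The interval lay within 2-fold for 48 of 50 genes and within 1.5-fold for 37. Both comparisons share the isotype samples, so their values are not independent of each other.

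Between anti-PD1 and anti-Lag3, again 0 members and 36 genes overall (0.303%) were called, and the smallest adjusted p of a member was 0.653. *Mcm10*, *Rfc3* and *Rpa1* (3 of 50, 6%) had an unadjusted p under 0.05, against 6.53% of all genes. The log2 fold changes, anti-PD1 over anti-Lag3, ran from −0.67 to 0.44 with a median of −0.04, and 16 genes (32%) did not overlap, against 35.9% of all genes. The interval lay within 2-fold for 49 of 50 genes. A test for any difference among the 3 groups called 0 members and 102 genes overall (0.859%), with 3 members (6%) at an unadjusted p under 0.05, against 7.57% of all genes. The shares of members past each mark were thus close to the shares over all genes.

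**Figure D3:**
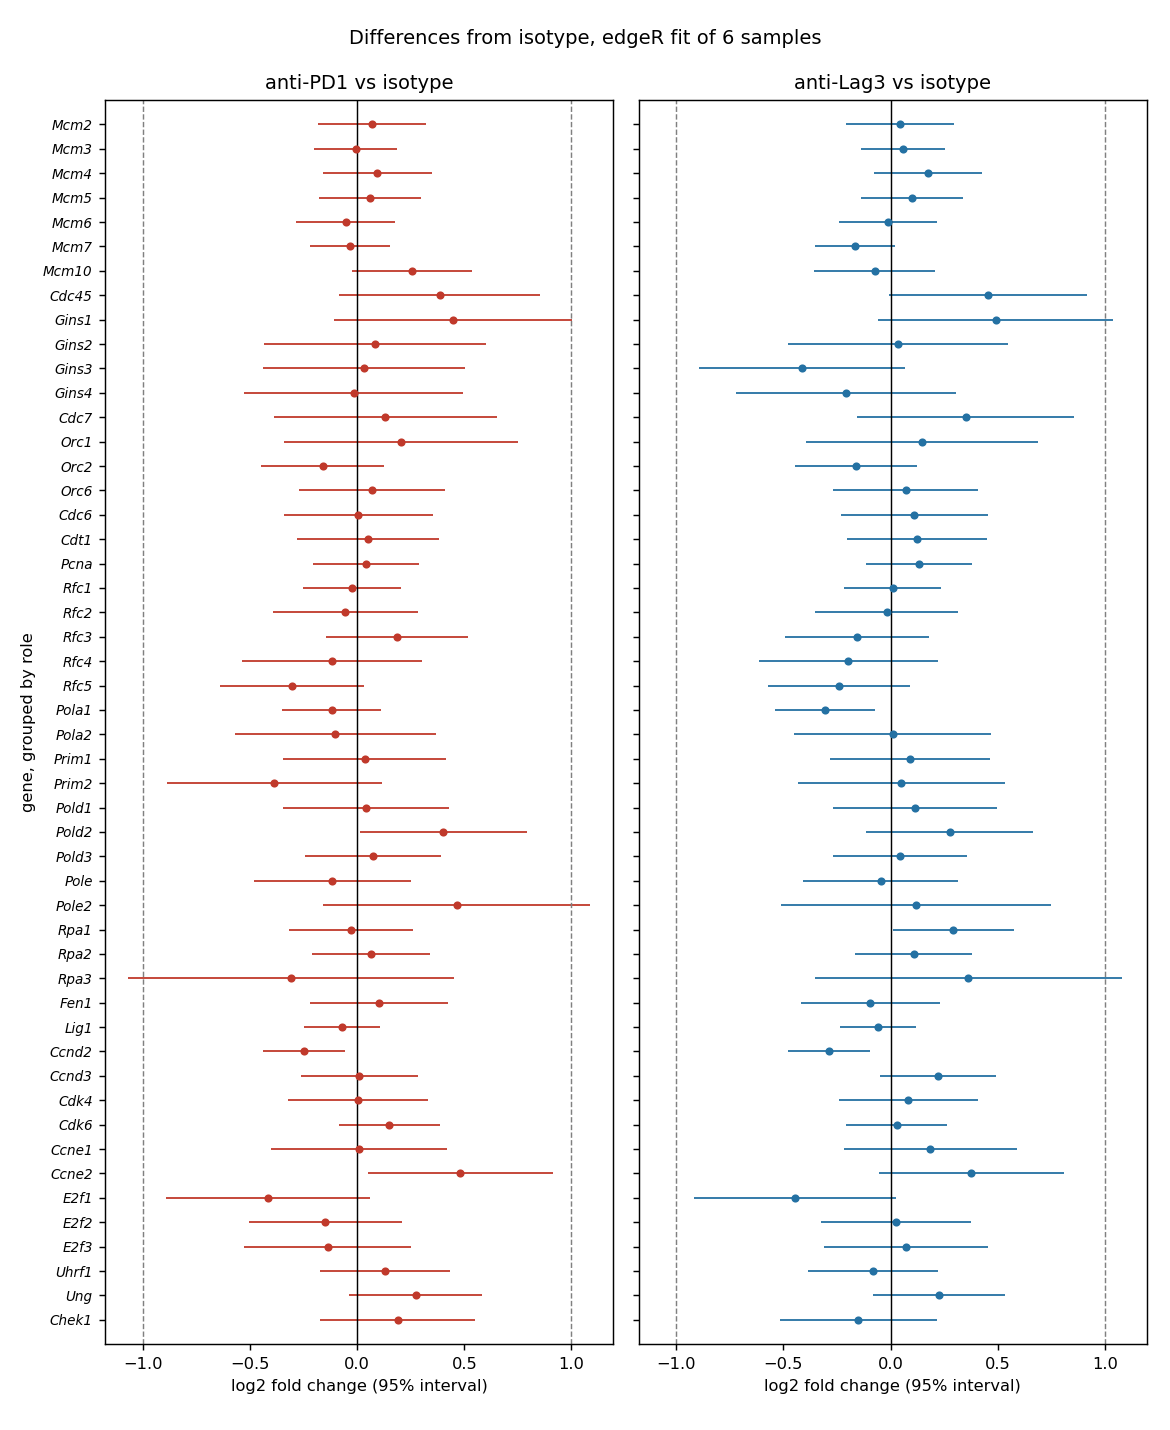
Log2 fold change (points) with its 95% interval (bars) for the 50 genes in anti-PD1 against isotype (left) and anti-Lag3 against isotype (right); dashed lines mark 2-fold. The interval crosses a dashed line for 3 genes on the left (*Gins1*, *Pole2*, *Rpa3*) and 2 on the right (*Gins1*, *Rpa3*).

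The MCM ring, the core of the replicative helicase, had the smallest median standard error of the 10 roles, 0.116 on the log2 scale between anti-PD1 and isotype. Its 6 genes summed to 2429 and 2573 CPM in isotype, 2575 and 2425 in anti-PD1 and 2367 and 2572 in anti-Lag3. The largest of their log2 fold changes against isotype were 0.09 for *Mcm4* with anti-PD1 and 0.18 for *Mcm4* and −0.17 for *Mcm7* with anti-Lag3. *Mcm3* (chr1:20802968-20820312, GRCm38) had 601 and 552 CPM in isotype, 570 and 577 in anti-PD1 and 582 and 618 in anti-Lag3, and its intervals against isotype, on the log2 scale, were −0.20 to 0.19 and −0.14 to 0.25. *Mcm7* (chr5:138164583-138172422) had 893 and 1005 CPM in isotype, 981 and 877 in anti-PD1 and 802 and 889 in anti-Lag3. Both anti-Lag3 samples lay under both isotype samples, by a narrow margin, with a log2 fold change of −0.17 (95% interval −0.35 to 0.02). *Mcm7* shares exon sequence with *Mir25* and *Mir93* on its own strand and with *Ap4m1* and *Cops6* on the other, and the strand setting of the counting is not given in the sources used here. The same limit holds for *Ccnd2* (*9330179D12Rik*, *Gm43126*), *Ccnd3* (*Bysl*), *Ccne2* (*Ints8*), *Cdk4* (*Tspan31*), *Cdk6* (*Gm17590*), *Cdc45* (*Ufd1*) and *Lig1* (*Zswim9*). It also holds for *Orc1*, *Orc2*, *Orc6*, *Rfc2*, *Rfc4*, *Rfc5*, *Fen1*, *Gins2* and *Pole*, which share exon sequence with genes on the other strand. The other members of the ring also stayed close to isotype. *Mcm2* had 194 and 209 CPM in isotype, 230 and 194 in anti-PD1 and 204 and 212 in anti-Lag3. *Mcm4* had 223 and 216 CPM in isotype, 237 and 231 in anti-PD1 and 215 and 280 in anti-Lag3, where replicate 2 alone was high. *Mcm5* (chr8:75109569-75128439) had 227 and 234 CPM in isotype, 242 and 238 in anti-PD1 and 239 and 254 in anti-Lag3, so all 4 treated samples lay just above isotype, at log2 fold changes of 0.06 and 0.10. *Mcm6* (chr1:128331590-128359664) had 290 and 358 CPM in isotype, 316 and 309 in anti-PD1 and 326 and 318 in anti-Lag3, with all treated samples between the isotype samples.

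The factors that activate the ring had fewer reads and wider intervals. These 7 genes summed to 333 and 318 CPM in isotype, 359 and 389 in anti-PD1 and 347 and 322 in anti-Lag3. Both anti-PD1 sums lay above the other 4, and no test was run on sums by role. *Mcm10*, which helps start unwinding (chr2:4989714-5012791), had 129 and 130 CPM in isotype, 150 and 159 in anti-PD1 and 130 and 117 in anti-Lag3. Both anti-PD1 samples lay above the other 4, with a log2 difference from anti-Lag3 of 0.33 (95% interval 0.05 to 0.61, adjusted p = 0.653 by edgeR). *Cdc45*, which joins MCM and GINS in the helicase, had 28.7 and 42.7 CPM in isotype, 45.5 and 48.2 in anti-PD1 and 41.7 and 56.5 in anti-Lag3. Isotype 1 stood lowest and isotype 2 lay inside the range of the treated samples, and the ratio of 1.96 between the highest and lowest sample was the largest of the 50 genes. For the 4 GINS genes, every interval against isotype included no change. *Gins2* had log2 fold changes of 0.08 with anti-PD1 and 0.04 with anti-Lag3, and *Gins4* had −0.02 and −0.21. *Gins1* had 22.6 and 20.9 CPM in isotype, 26.4 and 32.7 in anti-PD1 and 29.9 and 31.2 in anti-Lag3, with log2 fold changes of 0.45 (−0.11 to 1.00) and 0.49 (−0.06 to 1.04). *Gins3* gave −0.41 (−0.89 to 0.07) with anti-Lag3 and 0.03 with anti-PD1. *Cdc7*, the kinase that triggers origin firing, gave 0.13 (−0.39 to 0.65) and 0.35 (−0.16 to 0.86).

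Origin recognition and licensing genes summed to 427 and 468 CPM in isotype, 489 and 406 in anti-PD1 and 443 and 472 in anti-Lag3, with no gap between groups. *Cdc6* and *Cdt1*, which load the ring, had log2 fold changes of 0.01 and 0.05 with anti-PD1 and 0.11 and 0.12 with anti-Lag3. *Orc2*, a subunit of the origin recognition complex, had 138 and 136 CPM in isotype, 127 and 119 in anti-PD1 and 119 and 126 in anti-Lag3. All 4 treated samples lay under both isotype samples, at −0.16 in each comparison (intervals −0.45 to 0.12). *Orc1* had 24.5 and 31.8 CPM in isotype, 40.2 and 25.4 in anti-PD1 and 34.6 and 28.2 in anti-Lag3, so the replicates of anti-PD1 spanned nearly the whole range.

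*Pcna*, the sliding clamp and a standard marker of S phase (chr2:132249162-132253314), had 230 and 215 CPM in isotype, 248 and 210 in anti-PD1 and 258 and 230 in anti-Lag3. The ranges of the groups met or overlapped, with log2 fold changes of 0.04 (−0.21 to 0.29) and 0.13 (−0.11 to 0.38). The clamp and clamp loader genes summed to 826 and 815 CPM in isotype, 835 and 781 in anti-PD1 and 829 and 797 in anti-Lag3. Among the clamp loader genes, *Rfc1* and *Rfc2* differed by at most 0.06 on the log2 scale in any comparison. *Rfc3* had 82.5 and 80.5 CPM in isotype, 95.4 and 90.0 in anti-PD1 and 73.0 and 73.2 in anti-Lag3. The 3 groups of *Rfc3* were fully separate, with isotype in the middle, and the log2 difference of anti-PD1 from anti-Lag3 was 0.34 (95% interval 0.01 to 0.67, adjusted p = 0.755 by edgeR). *Rfc5* had 99.9 and 88.6 CPM in isotype, 80.0 and 72.4 in anti-PD1 and 82.2 and 77.3 in anti-Lag3, with log2 fold changes of −0.31 (−0.64 to 0.03) and −0.24 (−0.57 to 0.09).

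The polymerase and primase genes summed to 749 and 713 CPM in isotype, 705 and 738 in anti-PD1 and 687 and 709 in anti-Lag3. *Pola1*, the catalytic subunit of polymerase alpha, had 295 and 289 CPM in isotype, 264 and 275 in anti-PD1 and 222 and 251 in anti-Lag3. Its isotype samples lay above the other 4 and its anti-Lag3 samples below the other 4, with a log2 fold change of −0.31 with anti-Lag3 (95% interval −0.54 to −0.07, adjusted p = 0.69 by edgeR). *Pold2*, an accessory subunit of polymerase delta, had 52.8 and 46.3 CPM in isotype, 61.3 and 69.1 in anti-PD1 and 59.9 and 59.8 in anti-Lag3. Here the isotype samples were the lowest, and the log2 fold change with anti-PD1 was 0.40 (95% interval 0.01 to 0.79, adjusted p = 0.591 by edgeR). Their partners gave other values: *Pola2* had −0.10 and 0.01, *Pold1* 0.04 and 0.11, and *Pold3* 0.07 and 0.04 with anti-PD1 and anti-Lag3. *Pole2*, a subunit of polymerase epsilon, had one of the widest intervals at 0.46 (−0.16 to 1.09) with anti-PD1, from 294 reads in all, and shares exon sequence with *Gm49384* on its own strand.

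*Rpa1*, the large subunit of the single-strand binding complex RPA, had 118 and 125 CPM in isotype, 120 and 118 in anti-PD1 and 140 and 157 in anti-Lag3. Both anti-Lag3 samples lay above the other 4, with log2 differences of 0.29 from isotype (95% interval 0.01 to 0.58, adjusted p = 0.81 by edgeR) and of −0.32 for anti-PD1 over anti-Lag3 (−0.61 to −0.04, adjusted p = 0.687). *Rpa1* shares exon sequence with *Gm47300* on its own strand. *Rpa2*, the middle subunit, had 150 and 165 CPM in isotype, 171 and 159 in anti-PD1 and 152 and 187 in anti-Lag3, and its groups overlapped. *Rpa3* had the fewest reads of the list, with 11.8 and 16.5 CPM in isotype, 11.5 and 11.4 in anti-PD1 and 21.9 and 14.9 in anti-Lag3, and its intervals against isotype reached beyond 2-fold. The 3 RPA genes summed to 279 and 306 CPM in isotype, 302 and 288 in anti-PD1 and 314 and 359 in anti-Lag3. *Lig1*, the ligase that seals Okazaki fragments, was among the steadiest, with 868 to 928 CPM over the 6 samples. *Lig1* and *Fen1* summed to 1010 and 1023 CPM in isotype, 972 and 986 in anti-PD1 and 949 and 997 in anti-Lag3. All treated sums of this pair lay under both isotype sums, but *Lig1* made up most of each sum. *Fen1* had 101 and 95.4 CPM in isotype, 96.8 and 113 in anti-PD1 and 81.4 and 102 in anti-Lag3, and its groups overlapped.

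Of the G1 cyclins, *Ccnd2* (cyclin D2, chr6:127125162-127152193) had the smallest p among the members. It had 1232 and 1637 CPM in isotype, 1235 and 1180 in anti-PD1 and 1176 and 1177 in anti-Lag3. Isotype 2 stood apart from the other 5 samples, while isotype 1 lay within the range of the treated samples. The log2 fold changes were −0.25 with anti-PD1 (95% interval −0.44 to −0.06, unadjusted p = 0.012 and adjusted p = 0.353 by edgeR) and −0.29 with anti-Lag3 (−0.48 to −0.10, unadjusted p = 0.0041 and adjusted p = 0.641). Without isotype 2 they were −0.03 and −0.07. Without isotype 1 they were −0.44 and −0.47, and *Ccnd2* then passed the adjusted threshold in both comparisons, so 1 library decides the call. *Ccnd3*, the other D-type cyclin on the list, had 151 and 151 CPM in isotype, 166 and 139 in anti-PD1 and 171 and 181 in anti-Lag3.

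*Ccne2* (cyclin E2, which with CDK2 drives entry into S phase) had 40.5 and 46.7 CPM in isotype, 73.3 and 49.5 in anti-PD1 and 64.1 and 49.8 in anti-Lag3. All 4 treated samples lay above both isotype samples, but the treated replicates were further apart from each other than the nearer of them was from isotype. Its log2 fold changes were 0.48 (95% interval 0.05 to 0.91, adjusted p = 0.516 by edgeR) and 0.38 (−0.05 to 0.81). Leaving out 1 sample at a time moved the value with anti-PD1 between 0.18, without anti-PD1 1, and 0.74, without anti-PD1 2. *Ccne1* did not follow it, with 53.3 and 74.1 CPM in isotype, 65.6 and 63.0 in anti-PD1 and 56.1 and 88.8 in anti-Lag3. *Cdk4* and *Cdk6* are the kinase partners of the D-type cyclins. *Cdk4* had 91.9 and 118 CPM in isotype, 92.0 and 118 in anti-PD1 and 103 and 119 in anti-Lag3. *Cdk6* had 284 and 328 CPM in isotype, 377 and 303 in anti-PD1 and 319 and 306 in anti-Lag3. The groups of both kinases overlapped, and they had log2 fold changes of 0.01 and 0.15 with anti-PD1 and 0.08 and 0.03 with anti-Lag3. The 6 genes of this role summed to 1852 and 2355 CPM in isotype, 2009 and 1853 in anti-PD1 and 1889 and 1921 in anti-Lag3.

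**Figure D4:**
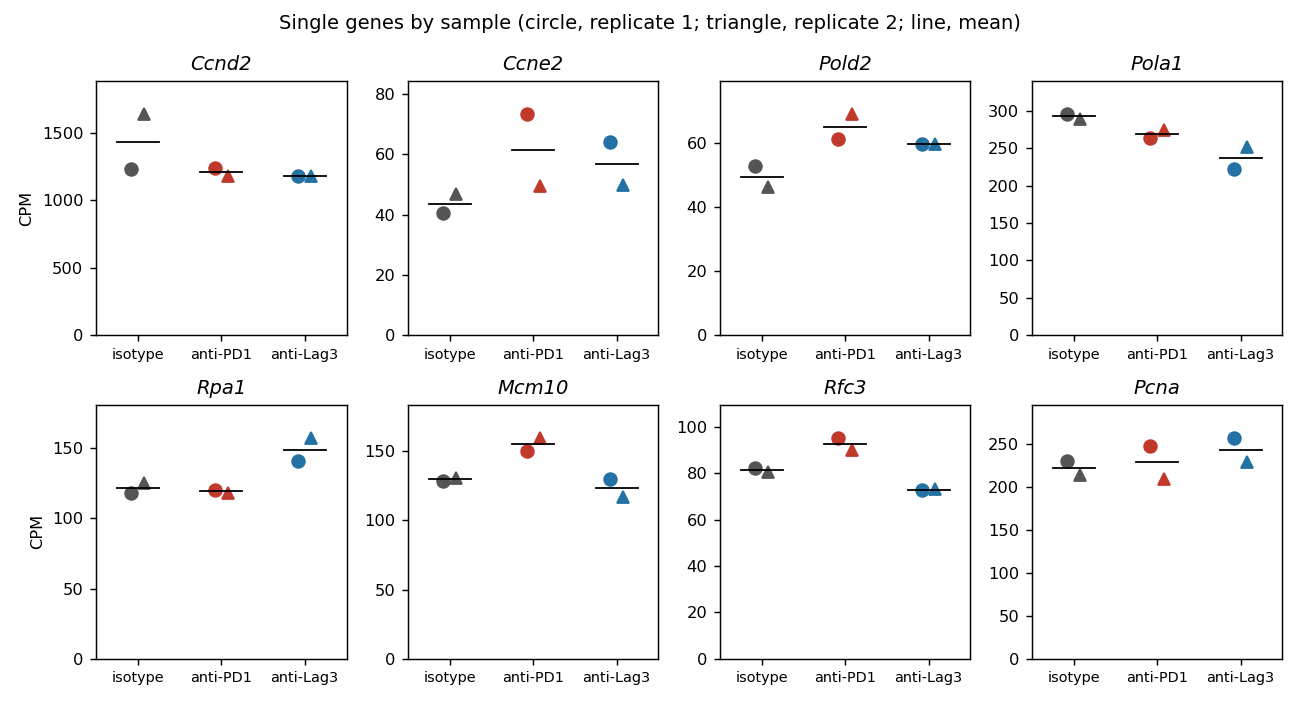
CPM (vertical axis from 0) of the 7 genes with an unadjusted p under 0.05 in any comparison, and *Pcna*, in isotype, anti-PD1 and anti-Lag3; circles are replicate 1, triangles replicate 2 and lines the group means. *Ccnd2* is highest in isotype 2, *Rpa1* is highest in both anti-Lag3 samples, and *Pcna* overlaps between isotype and anti-PD1.

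The activating E2F factors bind the promoters of replication genes. The 3 genes of this role summed to 177 and 194 CPM in isotype, 170 and 153 in anti-PD1 and 170 and 186 in anti-Lag3. *E2f1* had 43.8 and 45.9 CPM in isotype, 35.0 and 32.3 in anti-PD1 and 38.0 and 28.2 in anti-Lag3. All 4 treated samples lay under both isotype samples, at log2 fold changes of −0.42 (−0.89 to 0.06) and −0.44 (−0.92 to 0.03), and neither passed even the unadjusted mark. The value with anti-Lag3 ran from −0.23, without anti-Lag3 2, to −0.67, without anti-Lag3 1. *E2f2* had 78.2 and 80.1 CPM in isotype, 75.2 and 67.9 in anti-PD1 and 69.6 and 91.0 in anti-Lag3. *E2f3* had 54.7 and 67.6 CPM in isotype, 59.4 and 52.3 in anti-PD1 and 62.0 and 66.9 in anti-Lag3. Their log2 fold changes against isotype lay between −0.15 and 0.07. *Chek1*, a checkpoint kinase, *Ung*, which removes uracil from DNA, and *Uhrf1*, which helps copy DNA methylation, had log2 fold changes of 0.19, 0.27 and 0.13 with anti-PD1 and −0.15, 0.23 and −0.08 with anti-Lag3. These 3 genes summed to 292 and 289 CPM in isotype, 320 and 343 in anti-PD1 and 294 and 292 in anti-Lag3. Both anti-PD1 sums were thus the highest.

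The 17 genes with an E2F-type word in the window had median log2 fold changes of 0.03 with anti-PD1 and 0.04 with anti-Lag3, against 0.04 and 0.08 for the 24 genes with a window and no word, and no test was run on this split. *Mcm5* and *Mcm6*, shown above with several words each, had 0.06 and −0.05 with anti-PD1 and 0.10 and −0.01 with anti-Lag3.

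Other genes of the same processes, from lists kept apart from the 50, were also without a call. Of 35 other replication genes, 0 were called in any comparison, and 2, 5 and 3 had an unadjusted p under 0.05 (anti-PD1 against isotype, anti-Lag3 against isotype, and anti-PD1 against anti-Lag3), with medians of 0.04, 0.02 and 0.01. These are 5.71%, 14.3% and 8.57% of the list, against 8.12%, 5.96% and 6.53% of all genes, and with anti-Lag3 16 of 35 (45.7%) did not overlap isotype, against 34.6%. The 5 between anti-Lag3 and isotype were *Gmnn*, *Dbf4*, *Mcm8*, *Pole3* and *Slbp*, 3 with positive and 2 with negative values. *Mcm8*, a helicase of the MCM family used in repair, had 11.3 and 8.86 CPM in isotype, 18.7 and 20.4 in anti-PD1 and 26.6 and 13.7 in anti-Lag3, with log2 fold changes of 0.96 (SE 0.37) and 0.99 (SE 0.37). All 4 treated samples lay above isotype, at low read numbers and with adjusted p-values of 0.38 and 0.69 by edgeR. Of 15 genes of nucleotide supply, 0 were called, and 0, 1 and 0 had an unadjusted p under 0.05 in the same order of comparisons. The 1 gene with anti-Lag3 is 6.67% of the list, against 5.96% of all genes. Between anti-PD1 and anti-Lag3, 13 of 15 values were negative and 2 positive, and 7 (46.7%) did not overlap, against 35.9% of all genes. The 1 gene was *Rrm2*, the regulated subunit of ribonucleotide reductase, with 168 and 189 CPM in isotype, 226 and 181 in anti-PD1 and 228 and 244 in anti-Lag3. Its log2 fold change with anti-Lag3 was 0.40 (SE 0.13, adjusted p = 0.608 by edgeR), and both anti-Lag3 samples lay above the other 4.

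Among 19 tested genes of E2F, RB and G1 control, of 20 listed, 0 were called and 1, 1 and 2 had an unadjusted p under 0.05 in the same order of comparisons (5.26%, 5.26% and 10.5%, against 8.12%, 5.96% and 6.53% of all genes). *Rbl2*, the RB relative p130 that holds E2F genes off at rest, had 32.5 and 22.5 CPM in isotype, 37.4 and 30.7 in anti-PD1 and 20.7 and 17.1 in anti-Lag3, a log2 difference between the antibodies of 0.85 (SE 0.28, adjusted p = 0.373 by edgeR). *E2f7*, a repressing E2F, gave 1.13 (SE 0.42, adjusted p = 0.528) in the same comparison, at 5.94 to 18.4 CPM. Of 22 genes of mitosis, which follows S phase, 0 were called and 1, 4 and 2 had an unadjusted p under 0.05 (4.55%, 18.2% and 9.09%, against 8.12%, 5.96% and 6.53% of all genes), with medians of −0.10 and −0.06 against isotype. The 4 with anti-Lag3 were 3 with negative and 1 with positive values. *Ccna2*, the cyclin of S and G2 phase, had 110 and 95.4 CPM in isotype, 109 and 107 in anti-PD1 and 121 and 162 in anti-Lag3 (log2 fold change with anti-Lag3 0.47, SE 0.15, adjusted p = 0.641 by edgeR). *Cenpe* and *Cenpf*, centromere proteins of mitosis, had the opposite sign with anti-Lag3, at −0.30 (SE 0.11) and −0.32 (SE 0.13).

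**Figure D5:**
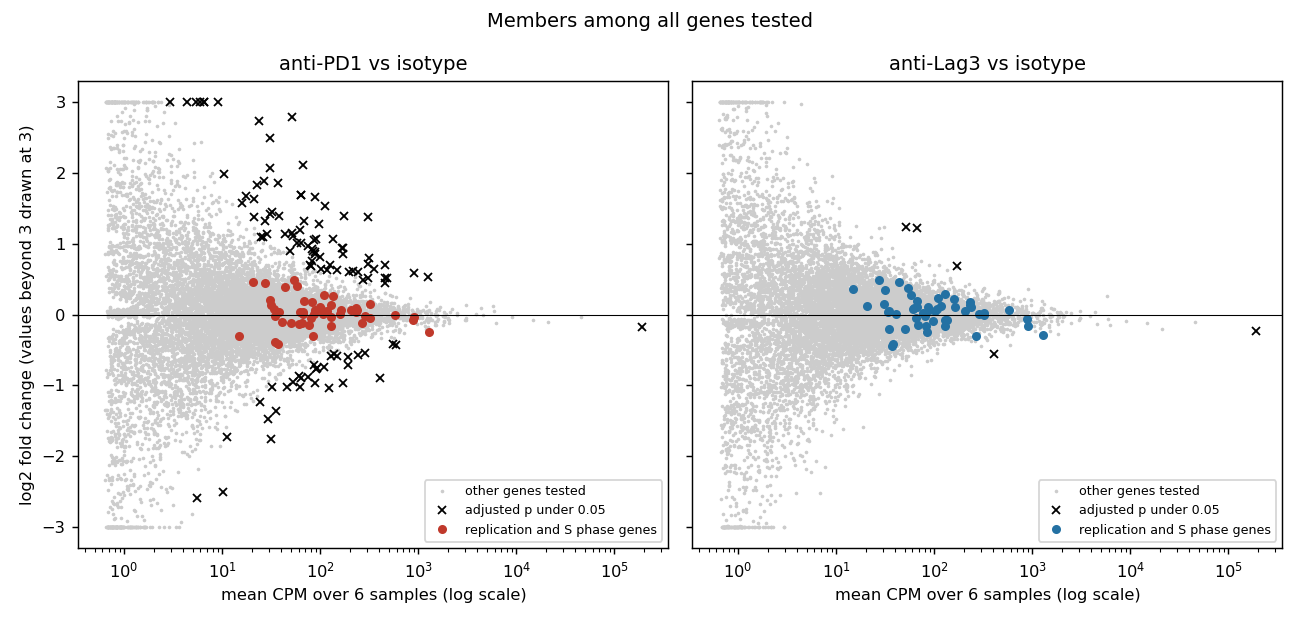
Log2 fold change against mean CPM over 6 samples (log axis) for all 11877 genes tested in anti-PD1 against isotype (left) and anti-Lag3 against isotype (right); crosses mark adjusted p under 0.05 and coloured points the 50 genes. The coloured points stay between −0.44 and 0.49, and none carries a cross.

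Facts of the whole set of samples touch these values in a few places. Total counts per sample ran from 2107715 to 2648920, and 3 counts, taken as the limit of detection, equal 1.11 to 1.44 CPM, well under every member. A single gene, *Gm42418*, took at least 17.4% of the counts in each sample. T cell markers (11 of 11 tested) summed to 2697 to 3107 CPM, with *Cd4* at 174 and 179 CPM in isotype, 131 and 150 in anti-PD1 and 190 and 181 in anti-Lag3. Between anti-PD1 and isotype, 7 of the 11 had a negative log2 fold change (median −0.21), 4 of them at an unadjusted p under 0.05 (*Cd3d*, *Cd3e*, *Cd4* and *Trbc2*, log2 fold changes −0.34, −0.38, −0.32 and −0.21), and only *Cd5* was called, as higher (1.01, SE 0.19, adjusted p = 0.00154 by edgeR). In all, 5 of the 11 (45.5%) had an unadjusted p under 0.05, against 8.12% of all genes. B cell markers (8 of 9 tested) summed to 123 to 136 CPM in isotype, 53.6 to 66.6 in anti-PD1 and 83.1 to 124 in anti-Lag3, with *Cd79a* at 0 in every sample, while *Ighm* and *Igkc* were called lower with anti-PD1 than with isotype, and *Ighm* also than with anti-Lag3 (adjusted p = 0.0227 by edgeR). Macrophage and dendritic cell markers (9 of 10 tested) summed to 59.6 to 61.7, 20.1 to 33.1 and 34.2 to 37.5, markers of CD8 T and NK cells (2 of 5 tested) to 48.3 to 56.1, 29.8 to 35.0 and 32.7 to 33.7, and erythroid markers (4 of 6 tested) to 45.1 to 51.8, 18.7 to 45.8 and 22.8 to 50.5. Of the B cell markers, 7 of 8 were lower than isotype with anti-PD1 and 8 of 8 with anti-Lag3. In each of these comparisons 4 of 8 (50%) had an unadjusted p under 0.05, against 8.12% and 5.96% of all genes. Of the macrophage and dendritic cell markers, 7 of 9 were lower with anti-PD1 than with isotype. An unadjusted p under 0.05 was reached by 4 of 9 (44.4%), all lower, against 8.12% of all genes, and *C1qa* was called lower (adjusted p = 0.0266 by edgeR). The other 2 of 9 went the opposite way, with both anti-PD1 samples above both isotype samples. The sums of the macrophage and dendritic cell markers and of the CD8 T and NK cell markers were thus at their highest in isotype, though not every single marker was. The part of such cells in the values of the replication genes was not tested. *Nr4a3* had 51.4 and 45.1 CPM in isotype, 29.7 and 29.4 in anti-PD1 and 40.9 and 36.8 in anti-Lag3. Between anti-PD1 and isotype its log2 fold change was −0.70 and it was not called (adjusted p = 0.195 by edgeR). The study reported more *Nr4a3*-Blue, a reporter protein and not this transcript, in responding cells with anti-PD1. The transcripts of the blocked receptors, *Pdcd1* and *Lag3*, had 12.3 to 17.1 and 2.60 to 7.59 CPM.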

How the data were processed

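CD4+ T cells from 6 mouse samples (isotype, anti-PD1, anti-Lag3; 2 each) were measured by QuantSeq 3′ mRNA sequencing. The authors aligned reads with STAR 2.5.2a to mm10 and counted them with HTSeq, per the labels, and the deposited values used here are whole-number counts per Ensembl gene, not normalised. A deposited rlog table was not used. The study left out a replicate batch of 3 samples, not analysed here. Genes with at least 10 reads in all were kept, and edgeR 4.0.16 in R 4.3.3 fitted the 6 samples together (TMM, glmQLFit and glmQLFTest, threshold 0.05). The common dispersion was 0.0160. Intervals are 95% intervals of that fit. DESeq2 1.42.0 and limma 3.58.1 were alternatives. The fits were tested on simulated counts. Names and positions came from GENCODE M21, which matched 47224 of 47643 identifiers. Between replicates, chi-square over genes was 2.73 to 3.41 for each degree of freedom, above sampling noise, and counts at 3′ ends do not separate isoforms. The members and lists were chosen with earlier results of these data known. By rule, sample values were given for members with an unadjusted p under 0.05, *Pcna*, the MCM ring, and the G1 cyclins, kinases and E2F factors, and for up to 3 genes of smallest p of another list. Other members given singly were picked after their values were seen.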

Additional observations from a re-analysis of the deposited data

How the results depend on the processing

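With 2 samples a group, members with few reads, such as *Rpa3* and *Pole2*, left room for differences beyond 2-fold. Over the other settings, 205 summary values moved little and 39 moved. Of 2400 recomputed fold changes of single members, 95 moved by more than a standard error and 2 passed the adjusted threshold, both of them *Ccnd2* without isotype 1. Leaving out 1 sample at a time thus gave 0 to 1 members called against isotype for each antibody and for any difference, and 0 between the antibodies. The members with an unadjusted p under 0.05 (3 in each comparison) were 0, 1 and 0 by DESeq2 for anti-PD1 against isotype, anti-Lag3 against isotype and anti-PD1 against anti-Lag3, and 3, 5 and 3 by limma-voom. With 1 sample left out they ran from 2 to 3, from 2 to 6 (6 without anti-Lag3 1) and from 0 (without anti-PD1 2) to 4. The member medians then ran from −0.0271 (without anti-PD1 1) to 0.0397, from −0.00226 (without isotype 1) to 0.0488 and from −0.0524 to 0.00959 (without anti-Lag3 2), so their signs rest on single samples.

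Counts over all genes moved more. Calls for anti-PD1 against isotype (107) were 175 with only the 4 samples of the comparison, 166 at a threshold of 0.1, and 53 (without isotype 2) to 185 (without anti-Lag3 1) with 1 sample left out. Calls for anti-Lag3 against isotype (5) were 1 by DESeq2, 0 with the newer edgeR quasi-likelihood, 0 after filterByExpr, 20 with genes of at least 1 read, 0 with only 4 samples, 3 without *Gm42418* and mitochondrial rRNA (a setting chosen after seeing the data), and 0 (without anti-PD1 1) to 19 (without anti-Lag3 1) with 1 sample left out. Calls between the antibodies (36) were 16 by DESeq2, 58 with genes of at least 1 read, and 7 (without anti-PD1 2) to 59 (without anti-Lag3 1). The cause of these moves was not tested.

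Same-numbered samples share only a number in the labels. Across all genes tested, the correlations of their deviations from the group means were 0.02 (isotype and anti-PD1), 0.02 (isotype and anti-Lag3) and −0.01 (anti-PD1 and anti-Lag3), and across the 50 members −0.33, 0.34 and −0.02. With 2 samples a group and no label tying the number to a batch, the numbers were not taken as pairs, although the study describes a left-out set of 3 samples as 1 batch. With the replicate number as a block, 144, 6 and 46 genes were called in the 3 comparisons and 0 members in any, and 3, 4 and 3 members had an unadjusted p under 0.05.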
